A study of Mus musculus with 3 samples.

Results

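Matrix metalloproteinases and the proteins that restrain them were followed across the ovulatory response in mouse granulosa cells, which line the ovarian follicle and nourish its oocyte. The group was a list of 10 genes, read by symbol from the table of RefSeq isoforms: 6 metalloproteinase genes (Mmp2, Mmp9, Mmp11, Mmp14, Mmp15 and Mmp19), 3 tissue inhibitors of metalloproteinases (Timp1, Timp2 and Timp3) and the membrane-anchored inhibitor Reck. All 10 were found among the 24225 genes of the table, and 9 reached 1 FPKM (fragments scaled to transcript length and sequencing depth) in at least 1 library. The exception was Mmp9.

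The animals were wild type C57BL/6 female mice of postnatal day 21 to 28. All groups had received 4 IU of eCG, a gonadotropin that promotes follicular growth. The 0 h group was taken before hCG. The others followed a dose of 5 IU of hCG, a hormone that acts on the luteinizing hormone receptor and triggers ovulation, by 4 h or by 12 h. Cells were obtained by puncturing follicles. RNA came from 3 mice per time, but there is 1 library per time, so no test was possible, and every difference given here is between 2 libraries. These were immature animals under hormone-induced ovulation, and the follicle puncture yields a mixture of cells that was checked only by its transcripts.

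Depth, read from the spacing of low values, came to 13400000, 11900000 and 11700000 fragments for the 0, 4 and 12 h libraries. All 10 granulosa markers were above 0 in each library, and their summed level was 9900, 8416 and 5427 FPKM at 0, 4 and 12 h. Most of that sum was Inha, the inhibin alpha subunit, at 6986, 7163 and 3742 FPKM. Foxl2, Fshr, Cyp19a1, Hsd17b1, Amhr2, Nr5a1 and Nr5a2 were lowest at 4 h, the first 4 of them at least 2-fold below 0 h. Amh was lowest at 0 h, and Inha and Fst were lowest at 12 h. Markers of theca and stroma summed to 362, 424 and 412 FPKM and those of leukocytes to 66.8, 110 and 107. Among the latter Ptprc (CD45) was at 0.489, 0.489 and 0.521 FPKM, Lyz2 at 45.2, 56.5 and 73.0 and Cd68 at 5.39, 22.7 and 12.5. In a mixture, fewer cells of a type and less RNA per cell cannot be told apart.

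Metalloproteinases are zinc-dependent enzymes that cut collagens, laminins and other matrix proteins, and most are made as inactive precursors. TIMPs bind the active enzymes and block them, and Reck holds several of them in check at the cell surface. In the ovulating follicle, breakdown of the follicle wall and the basement membrane lets the oocyte out, and the same matrix is rebuilt as the corpus luteum forms. Messenger RNA levels say nothing of activation, secretion or inhibitor binding.

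The sequences just before the transcription start of 4 members are shown because their 250 bases hold no exon annotated in GENCODE. They include Timp1, Reck and Mmp11, which differed at least 2-fold between some pair of libraries, and Mmp14, which did not. They are RefSeq windows of GRCm38.p6, 5′ to 3′ on the strand of the gene: Timp1 at chrX:20869916-20870165 (plus strand), Reck at chr4:43875280-43875529 (plus), Mmp11 at chr10:75932503-75932752 (minus) and Mmp14 at chr14:54431348-54431597 (plus). Capitals mark matches to the motifs described next.
Timp1: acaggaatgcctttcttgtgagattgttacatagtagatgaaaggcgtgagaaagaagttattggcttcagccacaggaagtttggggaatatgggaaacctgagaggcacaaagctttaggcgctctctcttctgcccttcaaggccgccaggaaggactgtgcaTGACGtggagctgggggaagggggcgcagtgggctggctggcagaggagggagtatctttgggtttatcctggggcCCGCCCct
Reck: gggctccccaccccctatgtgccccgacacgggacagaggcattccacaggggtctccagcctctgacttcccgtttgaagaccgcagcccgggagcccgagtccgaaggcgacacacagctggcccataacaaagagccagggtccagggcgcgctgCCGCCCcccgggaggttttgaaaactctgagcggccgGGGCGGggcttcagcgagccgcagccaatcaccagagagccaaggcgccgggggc
Mmp11: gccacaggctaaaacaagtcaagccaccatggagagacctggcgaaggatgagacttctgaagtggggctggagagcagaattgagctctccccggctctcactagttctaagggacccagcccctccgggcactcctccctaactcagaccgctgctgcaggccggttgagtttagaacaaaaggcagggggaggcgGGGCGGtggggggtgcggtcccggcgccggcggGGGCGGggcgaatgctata
Mmp14: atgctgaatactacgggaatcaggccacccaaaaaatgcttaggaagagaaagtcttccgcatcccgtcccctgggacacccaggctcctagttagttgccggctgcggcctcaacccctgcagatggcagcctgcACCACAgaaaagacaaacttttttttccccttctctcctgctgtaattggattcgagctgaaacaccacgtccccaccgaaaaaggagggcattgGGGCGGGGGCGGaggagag

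A window was found for 7 of the 10 members (Mmp11, Mmp14, Mmp15, Timp1, Timp2, Timp3 and Reck). Both strands of the 250 bases were searched for 7 motifs, and each share that follows is that among all 32851 RefSeq windows. The SP box GGGCGG was present in 7 of the 7 windows, against 32.7% of all windows. The capitals ACCACA in Mmp14 are the RUNX letters TGTGGT read on the other strand, present in 1 of the 7 windows and in 14.0% of all. The capitals TGACG in Timp1 are a CRE half-site, the core of the element that cAMP-regulated factors bind, present in 1 of the 7 and in 17.8% of all. Its first base lay at -84 from the start, and the single SP box of Timp1 began at -8. The letters TGANTCA (AP-1, 6.75% of all windows), TGACGTCA (full CRE, whose match would also hold the half-site, 1.55%), AAGGTCA (NR5A, 4.08%) and ACANNNTGT (progesterone receptor, 5.84%) were found in 0 of the 7. G and C made up between 54.4% (Timp1) and 68.4% (Reck) of the letters, and the median over all windows was 52.4%. A match is a description of letters and not a binding site.

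The inhibitor side was led by Timp1, which encodes a secreted inhibitor of most soluble metalloproteinases. Its level was 34.6 FPKM at 0 h (deposited interval 28.3 to 42.0), 521 at 4 h (490 to 552) and 191 at 12 h (173 to 211). The 3 intervals lie apart, with the 4 h library highest and the 12 h library still above the 0 h one. The value at 4 h was 15.0-fold that at 0 h, and the value at 12 h was 5.53-fold that at 0 h. Among genes with at least 1 FPKM, Timp1 exceeded 77.8% at 0 h, 98.9% at 4 h and 97.4% at 12 h. On the log2(FPKM + 1) scale, which understates differences of low genes, its log2 fold was 3.87 from 0 to 4 h and -1.44 from 4 to 12 h. A value of at least 1 or at most -1 on this scale is the 2-fold rule used here. The interval here, and throughout, is the deposited bound of the estimate within 1 library, added over isoforms, and does not describe the spread between mice. Adding bounds can make the interval of a gene with several isoforms wider than that of its total, so an overlap there is weak evidence of similar levels.

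Timp3, whose product is bound to the matrix and also blocks some ADAM and ADAMTS enzymes, had its highest level in the same library. Timp3 was at 13.2 FPKM at 0 h (11.3 to 15.0), 28.6 at 4 h (26.5 to 30.8) and 10.6 at 12 h (8.88 to 12.4). The 4 h interval lies above both others, and those of 0 h and 12 h overlap. Its log2 folds were 1.07 and -1.35, the first close to the 2-fold rule, and both fell inside 2-fold when the libraries were rescaled to the mean of their sums (0.77 and -0.98). Timp2, which inhibits metalloproteinases and also takes part in activating the Mmp2 precursor on the cell surface, was lowest where Timp1 and Timp3 were highest. It was at 32.8 FPKM at 0 h (30.2 to 35.4), 18.7 at 4 h (16.4 to 21.1) and 22.6 at 12 h (20.4 to 24.7). The 0 h interval lies above both later ones, which overlap. The log2 fold from 0 to 4 h was -0.78, inside 2-fold on the deposited scale and outside it, at -1.07, on the rescaled libraries.

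Reck was at 9.74 FPKM at 0 h (7.85 to 11.6), 12.0 at 4 h (10.1 to 13.9) and 4.96 at 12 h (3.81 to 6.11). The first 2 intervals overlap and the 12 h one lies below both. The value at 4 h was 2.42-fold that at 12 h, a log2 fold of -1.13 from 4 to 12 h that became -0.78 on libraries rescaled to the mean of their sums. Relative to 0 h, the 12 h level was 0.509-fold, a log2 fold of -0.85.

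Among the enzymes the highest level was that of Mmp11 (stromelysin-3), which is unusual in being activated inside the cell by furin-type convertases. Mmp11 was at 87.9 FPKM at 0 h (79.9 to 96.6), 111 at 4 h (102 to 119) and 230 at 12 h (214 to 245). On the deposited scale the 3 intervals lie apart and the order follows time. The log2 fold from 0 to 4 h was 0.33, and 0.02 on libraries rescaled to the mean of their sums. The folds from 0 to 12 h and from 4 to 12 h stayed past 2-fold on those (1.46 and 1.44). The value at 12 h was 2.61-fold that at 0 h and 2.07-fold that at 4 h, with log2 folds of 1.37 and 1.05. Mmp11 exceeded 92.7%, 93.4% and 98.0% of genes with at least 1 FPKM at 0, 4 and 12 h.

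Mmp19, a secreted enzyme that cuts several basement membrane components, had the largest relative difference of the enzymes, from a low base. It was at 1.32 FPKM at 0 h (0.571 to 2.18), 7.0 at 4 h (3.45 to 11.6) and 10.53 at 12 h (5.99 to 16.0). The 0 h interval lies below the later 2, and those overlap widely. These values correspond to about 35.7, 182 and 259 fragments. The log2 fold was 1.78 from 0 to 4 h, 0.53 from 4 to 12 h and 2.31 from 0 to 12 h. With a pseudocount of 5 FPKM the first of these was 0.92, inside 2-fold. Unlike Timp1 and Timp3, Mmp19 was not lower at 12 h than at 4 h by the 2-fold rule.

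Mmp2 (gelatinase A, which degrades type IV collagen and denatured collagens) was at 12.5 FPKM at 0 h (9.98 to 15.0), 15.6 at 4 h (12.9 to 18.3) and 20.9 at 12 h (17.8 to 24.0). Its neighbouring intervals overlap, those of 0 h and 12 h lie apart, and the 12 h value was 1.67-fold that at 0 h. Mmp14, the membrane-bound enzyme that activates Mmp2 together with Timp2, was at 44.0 (40.5 to 47.5), 42.2 (38.7 to 45.7) and 48.0 FPKM (44.3 to 51.7). All 3 intervals of Mmp14 overlap one another. Mmp15, a second membrane-type enzyme, was at 4.62 (3.51 to 5.74), 3.50 (2.60 to 4.39) and 3.29 FPKM (2.47 to 4.11), with overlapping intervals in each pair.

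Mmp9 (gelatinase B), known from leukocytes, was near the limit of detection in each library. It was listed at 0.0505 FPKM at 0 h (0 to 0.160), 0.256 at 4 h (0 to 0.533) and 0.0579 at 12 h (0 to 0.214). These levels correspond to about 2.0, 9.06 and 2.0 fragments, and the 3 intervals overlap, so no difference was detectable at this depth. Of 8 neutrophil markers listed as a possible source of Mmp9, 3 reached 1 FPKM. S100a8 was at 1.59, 10.2 and 0.463 FPKM at 0, 4 and 12 h, and S100a9 was listed at 0, then 10.8 and 0.266. Camp was listed at 0, then 2.32 and 2.82 FPKM, highest at 12 h. The whole list summed to 1.91, 24.2 and 3.55 FPKM, with most of the 4 h sum from S100a8 and S100a9. Ngp and Elane, 2 of its 8 genes, were listed at 0 in each library. The part of these neutrophil markers in the Mmp9 values was not tested.

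**Figure D1:**
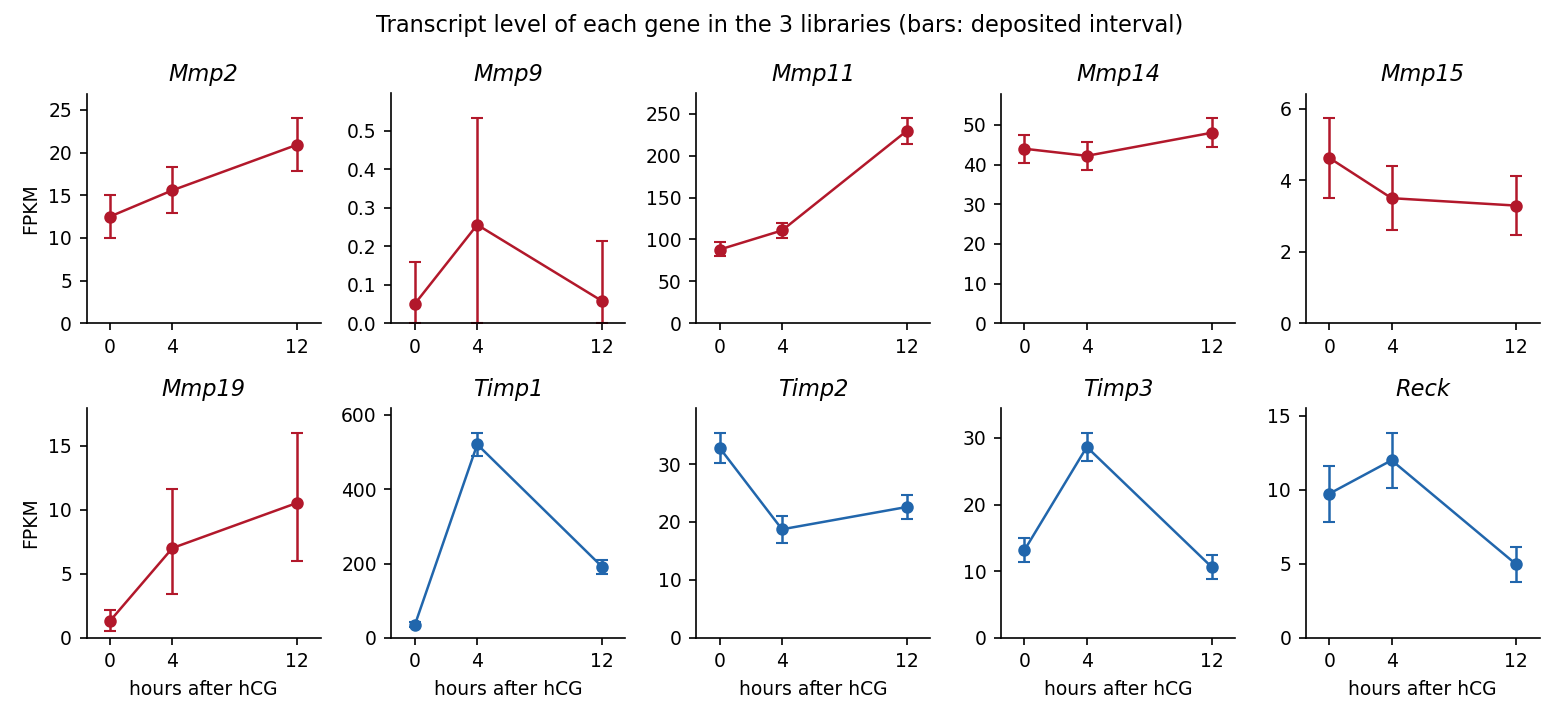
FPKM of the 10 genes (vertical axes, linear from 0, a separate scale for each gene) against hours after hCG (horizontal axes); points are single libraries, bars the deposited intervals, red the metalloproteinases and blue the inhibitors. Timp1 and Timp3 peak at 4 h (521 and 28.6 FPKM), Timp2 is lowest there (18.7), and Mmp11, Mmp19 and Mmp2 have their highest value at 12 h (230, 10.53 and 20.9).

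The order of levels between genes can be read because FPKM is scaled to transcript length. At 0 h it was Mmp11, Mmp14, Timp1, Timp2, Timp3, Mmp2, Reck, Mmp15, Mmp19 and Mmp9, and the intervals of Mmp14 and Timp1, of Timp1 and Timp2, of Timp3 and Mmp2 and of Mmp2 and Reck overlap. At 4 h Timp1 came first and Mmp11 second, and Timp3 had passed Timp2. There the neighbours from Timp2 to Mmp2, Reck, Mmp19 and Mmp15 overlap pair by pair. At 12 h Mmp11 was first again, with Timp1 just below it (intervals 214 to 245 and 173 to 211), and Mmp19 had moved up to stand with Timp3.

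Taking a 2-fold difference on the log2(FPKM + 1) scale as the rule, for genes that reach 1 FPKM in either library, 3 of 9 members (Mmp19, Timp1 and Timp3) were higher at 4 h than at 0 h, where 10.2% of 13240 genes were. No member was lower, against 7.03% of genes, and 17.3% of genes were past 2-fold in either direction. The median log2 fold of the 9 was 0.30, beside -0.01 for all genes with that level. From 4 to 12 h, 1 of 9 (Mmp11) was higher, against 4.83% of 13242 genes, and 3 (Timp1, Timp3 and Reck) were lower, against 7.88% (12.7% in either direction). All 3 that were lower are inhibitors and the 1 that was higher is an enzyme, while the inhibitor Timp2 was slightly higher, within 2-fold (0.26). With libraries rescaled to the mean of their sums, Timp1 alone was lower (Timp3 at -0.98 and Reck at -0.78), and Mmp11 stayed higher. From 0 to 12 h, 3 of 9 (Mmp11, Mmp19 and Timp1) were higher, against 3.16% of 13026 genes, and none was lower, against 2.55% (5.7% in either direction). The first 2 comparisons share the 4 h library, and the first and the last share the 0 h library. The members, and the lists compared below, were chosen with earlier results of these data known. Their shares beside those of all genes are therefore a description only. On libraries rescaled to the mean of their sums, the median of all genes was -0.29 from 0 to 4 h and 0.37 from 4 to 12 h, and the share of higher genes among those past 2-fold went from 59.3% to 36.7% and from 38.0% to 70.7%.

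**Figure D2:**
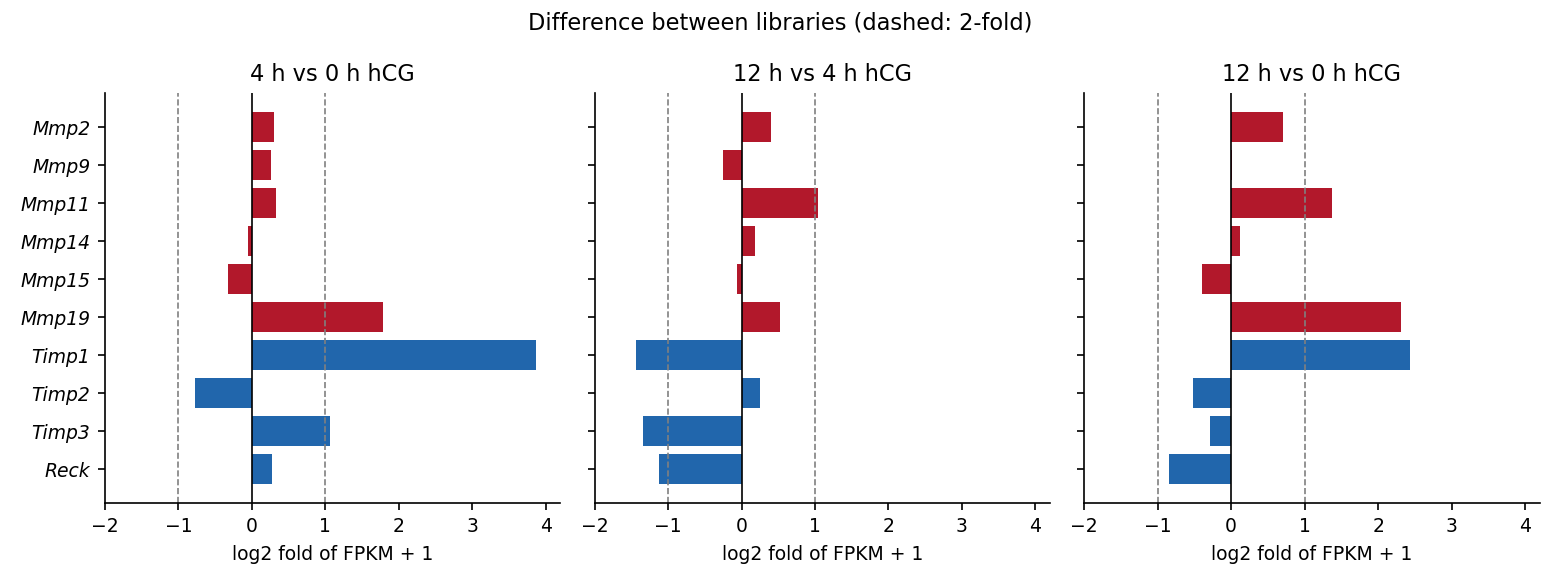
Log2 fold of FPKM + 1 (horizontal axes) for each gene in the 3 comparisons of libraries; red bars are metalloproteinases, blue bars inhibitors, dashed lines the 2-fold rule. Timp1 reaches 3.87 from 0 to 4 h and -1.44 from 4 to 12 h, while Mmp11 crosses the line only in the comparisons with 12 h (1.05 and 1.37).

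Summed over genes, enzyme and inhibitor transcripts took different courses. The 6 metalloproteinases summed to 150 FPKM at 0 h, 179 at 4 h and 312 at 12 h. The 3 TIMP genes summed to 80.6, 568 and 225 FPKM. TIMP transcripts were thus at 0.536 of the enzyme sum at 0 h, 3.17 times it at 4 h and 0.719 of it at 12 h. The make-up of the sums differed between libraries. Mmp11 made up 58.4%, 61.8% and 73.5% of the enzyme sum, and Timp1 made up 43.0%, 91.7% and 85.2% of the TIMP sum. Without Timp1 the other TIMP genes summed to 45.9, 47.4 and 33.2 FPKM, and without Mmp11 the other enzymes summed to 62.5, 68.5 and 82.8. The ratio does not depend on how the libraries are scaled, and it is a ratio of transcript levels and not of proteins.

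**Figure D3:**
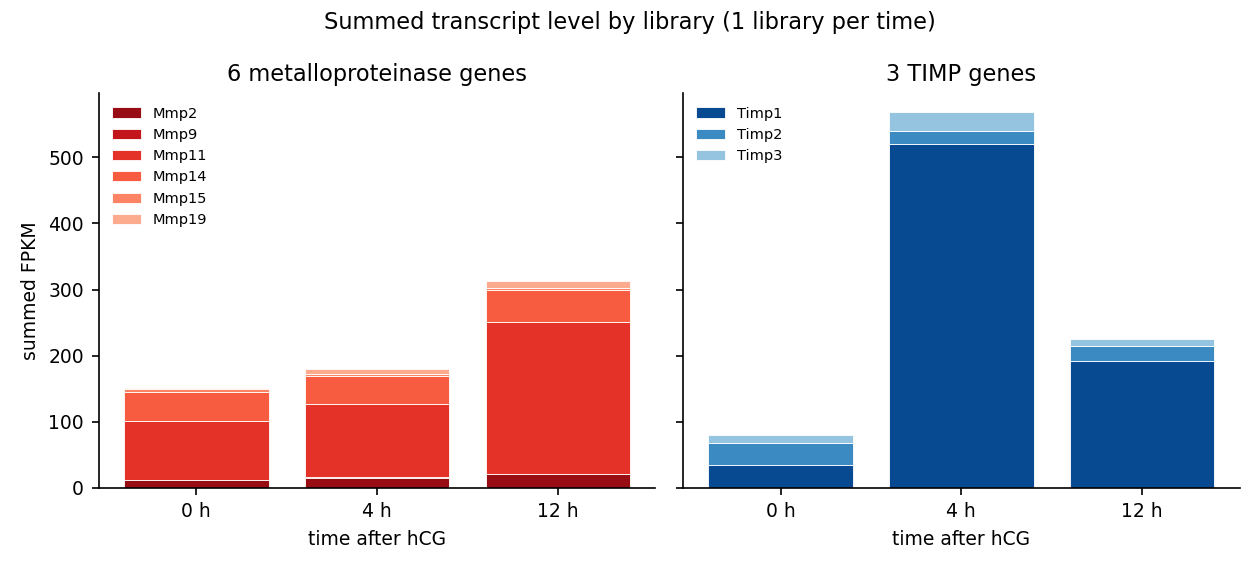
Summed FPKM (vertical axis, from 0) of the 6 metalloproteinase genes (left) and the 3 TIMP genes (right) in the library of each time, split by gene. The TIMP bar is the taller at 4 h (568 against 179 FPKM) and the shorter at 0 h and 12 h.

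The rest of both families was mostly silent. Of 17 further Mmp and Timp genes in the table, 6 were listed at 0 in each library, 9 stayed below 1 FPKM with a highest value of 0.844, and 2 passed 1 FPKM. Mmp23, a membrane-anchored family member, was at 66.5, 59.2 and 66.6 FPKM at 0, 4 and 12 h, second to Mmp11 among the enzymes at each time and within 2-fold throughout. Timp4 was at 0.371, 0.695 and 2.06 FPKM, higher at 12 h than at 0 h by the rule (log2 fold 1.16). With all 22 Mmp and 4 Timp genes the inhibitor sum was 0.369, 2.36 and 0.595 of the enzyme sum, the same order over time. Mmp8, the collagenase known from neutrophils, was listed at 0 at 0 h and at 0.261 and 0.0387 FPKM at 4 and 12 h.

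**Figure D4:**
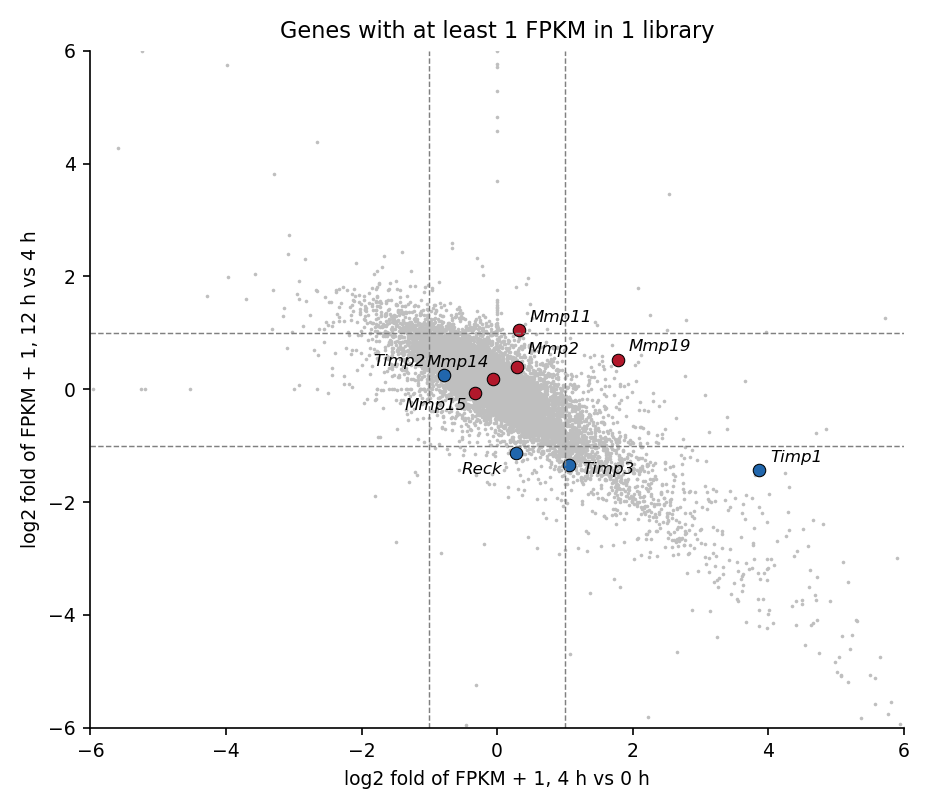
Log2 fold of FPKM + 1 from 0 to 4 h (horizontal) and from 4 to 12 h (vertical) of 13500 genes with at least 1 FPKM in some library (grey, 118 beyond the axes), with metalloproteinases in red, inhibitors in blue and dashed lines at 2-fold. The axes share the 4 h library. Timp1 (3.87, -1.44) and Timp3 (1.07, -1.35) lie at lower right, and Mmp19 (1.78, 0.53) and Mmp11 (0.33, 1.05) at upper right.

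Timp1, Mmp11 and Mmp19 have several RefSeq isoforms. For Timp1 nearly all signal lay on NM_011593, with 99.6%, 99.98% and 94.8% of the gene's FPKM at 0, 4 and 12 h. NM_001294280 was listed at 0 at 0 h and 4 h and at 9.77 FPKM at 12 h (5.28 to 14.3), 5.10% of the gene. Its 12 h interval lies above the earlier upper bounds of 0.539. For Mmp11 the minor isoform NM_001306184 was at 2.13 FPKM at 0 h (0 to 4.99), 5.57 at 4 h (3.23 to 7.92) and 14.4 at 12 h (9.22 to 19.7), or 2.42%, 5.03% and 6.29% of the gene. For Mmp19, NM_001164197 held 86.9% at 4 h and 92.5% at 12 h, and NM_021412 had intervals that reach 0 in each library. Isoforms of a gene share most of their sequence, and their split is an estimate.

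Positions are those of RefSeq in GRCm38. Timp1 lies on chromosome X at 20870166 to 20874737, within the span of Syn1 on the opposite strand without shared exons, and Timp3 on chromosome 10 at 86300412 to 86349505, where exons of Syn3 on the opposite strand overlap it. Syn1 (0.352, 0.616 and 0.378 FPKM) and Syn3 (0.696, 0.459 and 0.462) were under 1 FPKM in each library. Mmp19 lies on chromosome 10 at 128790910 to 128800827 and overlaps exons of Tmem198b on the opposite strand, which was at 8.23, 19.8 and 10.1 FPKM. The sources used here do not say whether reads were assigned by strand, so reads in the shared stretch of Mmp19 and Tmem198b cannot be told apart, and its part in the Mmp19 values was not tested. Mmp11 lies on chromosome 10 at 75923221 to 75932502, and in GENCODE, though not in RefSeq, it shares exon sequence with Chchd10 on the opposite strand. Chchd10, a mitochondrial protein gene, was at 89.5, 147 and 253 FPKM, close to the Mmp11 values of 87.9, 111 and 230. The part of Chchd10 in the Mmp11 values was not tested.

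Genes whose products activate metalloproteinases were next in the comparison, from a list of 14 of which 9 reached 1 FPKM. Higher values at 4 h were found for 6 of the 9 and lower values for none (median log2 fold 1.76), where 10.2% and 7.03% of all genes were higher and lower with a median of -0.01. Between 4 h and 12 h, 4 had a lower value and 1, the protease Prss8, had a higher one, against 7.88% and 4.83% of all genes (1.31, 0.456 and 1.92 FPKM, with overlapping intervals). The convertase Pcsk5, which cuts precursor proteins in the secretory pathway, was at 11.7, 171 and 44.3 FPKM, and Pcsk6 at 5.63, 23.0 and 10.3. The urokinase gene Plau, whose product generates plasmin, was at 78.7, 1105 and 199.9 FPKM, and its receptor Plaur at 3.97, 19.9 and 2.38. These 4 were named for having the largest folds of the list. Furin, chosen after its values were seen because it processes Mmp11 and Mmp14, was at 22.6, 62.0 and 30.6 FPKM.

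Of 20 genes for clearance, docking or other inhibition of proteases, 17 reached 1 FPKM in the first comparison. Of these, 4 had a higher and 1 a lower value at 4 h (median 0.50), against 10.2% and 7.03% of all genes, or 1 and 1 on libraries rescaled to the mean of their sums. The integrin subunit Itgav was at 71.5, 187 and 73.4 FPKM, its partner Itgb3 at 8.69, 12.5 and 21.9, and the caveolar protein gene Cav1 at 19.9, 48.8 and 35.4. The hyaluronan receptor Cd44, which can hold Mmp9 at the cell surface, was at 7.63, 13.9 and 3.39 FPKM. The tetraspanin gene Cd82 was the 1 that was lower at 4 h (40.7, 17.0 and 31.4 FPKM, with overlapping intervals). The other 12 of the 17 were within 2-fold between 0 h and 4 h. From 4 to 12 h, 2 of 17 (Cd44 and Itgav) were lower and none higher, against 7.88% and 4.83% of all genes. On rescaled libraries 1 was lower and 2 higher. From 0 to 12 h, 1 of 16 (Itgb3) was higher and none lower, against 3.16% and 2.55%.

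Among 11 listed sheddases and aggrecanases of the ADAM and ADAMTS families, 9 reached 1 FPKM. Whether each is inhibited by Timp3 was not tested. A higher value at 4 h was found for 4 of the 9 and a lower one for none on the deposited scale (1 on rescaled libraries), against 10.2% and 7.03% of all genes. Adamts5, named after its values were seen, went the other way, at 18.1, 9.90 and 9.04 FPKM. Its log2 folds against 0 h were -0.81 at 4 h and -0.93 at 12 h, inside 2-fold on the deposited scale. Adamts9 was at 4.37, 47.8 and 13.3 FPKM, Adamts4 at 0.992, 12.6 and 5.65, and Adam8 at 4.82, 24.0 and 8.18. These 3 and Adam9 had a lower value at 12 h than at 4 h, 4 of the 9 against 7.88% of all genes, and 2 of the 9 on rescaled libraries. Adamts1, which cuts versican, was at 28.5, 112 and 120 FPKM and stayed high at 12 h, where Timp3 was back near its 0 h level.

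Among 23 matrix substrate genes, the 4 h value was higher for 7 and lower for none (median 0.64), against 10.2% and 7.03% of all genes. Between 4 h and 12 h 1 gene, Vcan, had a lower value, against 7.88%. On rescaled libraries the count at 4 h was 5. The proteoglycan Vcan was at 111, 1806 and 119 FPKM. The basement membrane collagens Col4a1 (41.2, 149 and 130 FPKM), Col4a2 (24.6, 83.5 and 77.3) and Col18a1 (7.97, 34.0 and 17.8) were higher than at 0 h at both later times. Type IV collagen is a substrate of Mmp2 and Mmp9.

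Of 22 transcription factors linked to protease genes, 9 had a higher and none a lower value at 4 h, against 10.2% and 7.03% of all genes. From 4 to 12 h 9 had a lower and none a higher value, against 7.88% and 4.83%. These counts were the same on libraries rescaled to the mean of their sums. From 0 to 12 h, 4 of 20 were higher and 3 (Fosl1, Fosl2 and Etv4) lower, against 3.16% and 2.55%. The progesterone receptor Pgr was at 0.191, 138 and 0.399 FPKM, Runx2 at 2.23, 72.6 and 12.2, Runx1 at 5.57, 94.2 and 21.3 and the AP-1 subunit Junb at 8.10, 95.5 and 21.0. These 4 were named for their large folds, and other factors took another course, such as Fosl2 at 131, 109 and 62.8 FPKM and Etv4 at 1.90, 1.69 and 0.364.

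For each member past 2-fold in some comparison, the 3 protein-coding genes closest in their pair of log2 folds (0 to 4 h and 4 to 12 h) were taken from 10050 genes with at least 5 FPKM, over 3 libraries. Nearest to Timp1 were Ier3 (distance 0.11 in log2 units; 20.3, 297 and 102 FPKM), Sphk1 (0.38) and Mt2 (0.44). Nearest to Timp3 were Vim (0.05), Stc1 (0.05) and Il1rap (0.06), and nearest to Reck Cradd (0.10), Cdc42ep5 (0.11) and Slc15a2 (0.13). For Mmp11 they were Mlf1 (0.09), Nos2 (0.14) and Mthfsl (0.14), and for Mmp19 Heg1 (0.16), Hspb1 (0.21) and Saa3 (0.24). The nearest genes lay closer to Timp3 than to Timp1. Large folds were rarer, as from 0 to 4 h 1356 of 13240 genes were at least 2-fold higher and 472 at least 4-fold. The distances were not adjusted for this.

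Markers of other cell types also differed between libraries. Over all genes, 10.2% were higher and 7.03% lower at 4 h than at 0 h, and 4.83% higher and 7.88% lower at 12 h than at 4 h. On libraries rescaled to the mean of their sums these were 1000 and 1728 of 13163 genes, and 1670 and 693 of 13253. Theca and stroma markers had 0 of 9 higher and 0 lower at 4 h (1 lower on rescaled libraries; median 0.15 on the deposited scale and -0.15 on libraries rescaled to the mean of their sums). Leukocyte markers had 2 of 7 higher at 4 h and summed to 66.8, 110 and 107 FPKM. Endothelial markers had 2 of 7 higher at 4 h and 4 of 7 lower at 12 h than at 4 h (1 and 2 on rescaled libraries), with sums of 17.4, 41.5 and 15.8 FPKM. Surface epithelium markers had 4 of 7 higher at 4 h (2 on rescaled libraries) and sums of 58.3, 143 and 85.6 FPKM, and smooth muscle markers had 1 of 6 higher (0 on rescaled libraries) and sums of 126, 191 and 187. On the deposited scale every list of other cell types except the oocyte list had its highest sum at 4 h, where Timp1 and Timp3 were highest. For theca and stroma the 4 h and 12 h sums were close (424 and 412 FPKM). The same held for leukocytes (110 and 107) and smooth muscle (191 and 187). On rescaled libraries (divisors of 1.17 at 4 h and 0.889 at 12 h) these lists have their highest sum at 12 h. The endothelial, surface epithelium and neutrophil sums stay highest at 4 h there. Oocyte markers summed to 214, 163 and 305 FPKM, highest at 12 h like Mmp11, with 1 of 9 higher at 12 h than at 4 h on the deposited scale and 8 on rescaled libraries. Granulosa markers had 4 of 10 lower at 4 h than at 0 h (7 on rescaled libraries), and the same 4, Foxl2, Fshr, Cyp19a1 and Hsd17b1, higher at 12 h than at 4 h with none lower (4 and 0 on rescaled libraries). None of the lists of other cell types was at 0 throughout, and their part in the values of the 10 genes was not tested.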

How the data were processed

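RNA of granulosa cells was sequenced in 3 libraries (0, 4 and 12 h after hCG). The authors deposited FPKM of 34535 RefSeq isoforms with a lower and an upper bound, per the file headers; the level of the bounds is not stated, but each upper bound equals the value plus 2 deposited errors. The submitters' processing notes list CASAVA 1.8, TopHat2 2.1.1, Cufflinks 2.2.1 and mm10, with no role or order; strand and pooling are not given in the sources used here. Accessions were matched to symbols of GRCm38.p6 (34169) or through GENCODE M21 (193), and 173 had no match. Isoform FPKM and bounds were summed per gene; 12 failed estimates, none in a member, had no bounds. Depth was the fragment total at which most low values of genes with 1 isoform fell within 0.1 of a whole number (71.3%, 70.5% and 72.2% of values, where chance gives 20%); fragments per gene follow from it and GENCODE transcript lengths.

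Log2 folds used a pseudocount of 1 FPKM. Calls needed a fold of at least 2 and at least 1 FPKM in 1 of the 2 libraries, and no p-value was computed. Named genes were all members, other family genes with at least 1 FPKM, the 4 genes per list whose fold was largest, at least 1 of each direction where there was one, overlapping genes and the 3 nearest patterns. Members and lists were chosen with earlier results of these data known. Protein sequences were not used here. Python 3.11.15, numpy 2.4.6 and pandas 2.3.3 were used.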

Additional observations from a re-analysis of the deposited data

How the results depend on the processing

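No paired analysis was possible because each time has 1 library and no replicate. Of 11 alternatives, most left the member counts within 1.5 times. With a pseudocount of 5 FPKM, 1 member (Timp1) in place of 3 was higher at 4 h than at 0 h, and with a threshold of 4-fold also 1 (Timp1). With libraries rescaled to the mean of their sums, 1 member (Timp2) in place of 0 was lower at 4 h than at 0 h, and 1 (Timp1) in place of 3 was lower at 12 h than at 4 h. At 1.5-fold 1 member was lower at 4 h than at 0 h (Timp2) and 1 lower at 12 h than at 0 h (Reck), in place of 0. At 4-fold 0 members were higher and 0 lower at 12 h than at 4 h, in place of 1 and 3. No log2 fold of a member past 2-fold changed sign under any alternative, while 2 inside 2-fold did on rescaled libraries: Reck from 0 to 4 h (0.28 to -0.01 by library sums) and Mmp15 from 4 to 12 h (-0.07 to 0.23 or 0.15); 169 of 180 values of single members under alternatives stayed on their side of 2-fold and 11 did not, among them Timp3 and Reck on rescaled libraries. The ratio of TIMP to enzyme sums lay at 0.536 to 0.543, 3.17 to 3.29 and 0.719 to 0.723 at 0, 4 and 12 h. A floor of 1 FPKM cannot change an isoform share, as the floor only decides which shares are listed. It added those of Mmp19 at 0 h, with 99.98% on NM_001164197.

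Over all genes, the counts higher and lower were 1356 and 931 (4 h against 0 h), 639 and 1043 (12 h against 4 h) and 411 and 332 (12 h against 0 h). On libraries rescaled by their sums the first 2 pairs became 1000 and 1728, and 1670 and 693, and by protein-coding sums 1078 and 1458, and 1276 and 783 (42.5% and 62.0% higher). A pseudocount of 0.1 FPKM gave 1720 and 1422, 1130 and 1360, and 729 and 523, and 5 FPKM gave 781 and 345, 155 and 618, and 166 and 144. At 1.5-fold they were 2525 and 2481, 2141 and 2120, and 1145 and 873, and at 4-fold 472 and 121, 59 and 338, and 96 and 76. With the main isoform, the count of lower genes from 0 to 12 h was 523 and not 332. From 4 to 12 h the median of the sheddase list changed sign on libraries rescaled by their sums or protein-coding sums, from -0.12 to 0.24 or 0.14, as did that of the matrix list, from -0.11 to 0.28 or 0.17. Rescaling of the marker and gene lists was chosen after seeing the data. Values for Mmp9 rest on under 10 fragments, and no value has a replicate.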
